A study of Mus musculus with 27 samples.

Results

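The 41 genes described here encode the fast and shared parts of the sarcomere, the repeating unit of striated muscle that contracts, and were chosen by gene symbol from lists of thin filament, thick filament, titin and nebulin, Z-disc, M-band and assembly proteins. All 41 were found among the 54532 genes of the deposited table, and all 41 were among the 14630 genes tested. RNA was sequenced from the tibialis anterior, a hindlimb muscle, of male C57BL/6 mice aged 8 weeks, in which 40% of the muscle had been excised to make a volumetric muscle loss (VML). Uninjured muscle (n = 5) was set against injured muscle of day 3 (n = 5), day 7 (n = 6), day 14 (n = 6) and day 21 (n = 5). All groups shared the strain and sex given and are listed with the same age, and no other agent or allele is named in the labels. The methods of the study give 8 weeks as the age of the mice whose muscle was excised. Age at sampling would then rise with the day after injury, and the age of the uninjured mice at sampling is not stated separately. The part of age in the differences between groups was not tested. The public record calls the excision unilateral and the methods of the study call it bilateral, and the labels do not say whether any samples came from the same mouse, so p-values measure the spread between these samples. Because RNA came from whole muscle, a lower level can be fewer myofibres or less RNA per myofibre, and these cannot be told apart.

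In the sarcomere, thin filaments of actin, tropomyosin and the troponin complex slide past thick filaments of myosin when calcium binds troponin. The Z-disc anchors the thin filaments through alpha-actinin, the M-band cross-links the thick filaments through myomesins, and the giant protein titin spans the distance between both. Fast fibres, which dominate the mouse tibialis anterior, use their own isoforms of troponin, myosin light chain, myosin-binding protein C and alpha-actinin. New sarcomeres need chaperones and scaffold proteins that fold myosin and hold the filaments while they assemble.

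Promoters of 5 of the genes are shown because the genes carry the contrasts of the results. Acta1 was the most abundant member, Mybph rose most at day 3 while its paralog Mybpc2 fell, Myom3 rose while the other two myomesins fell, and Ttn is the scaffold of the whole unit. Each sequence is the 250 bases before the start of the RefSeq transcript on GRCm38.p6, written 5′ to 3′ on the strand of the gene, and none of these windows held an annotated exon base. Capitals mark matches, on either strand, to the E-box of myogenic factors (CANNTG), to MCAT (CATTCC), and to the MEF2 site and the CArG box of serum response factor, which are searched by name with their usual degenerate letters. The windows lie at chr8:123894776-123895025 on the minus strand for Acta1, chr1:134193198-134193447 on the plus strand for Mybph, chr7:44524670-44524919 on the minus strand for Mybpc2, chr4:135759465-135759714 on the plus strand for Myom3 and chr2:76982548-76982797 on the minus strand for Ttn.
Acta1: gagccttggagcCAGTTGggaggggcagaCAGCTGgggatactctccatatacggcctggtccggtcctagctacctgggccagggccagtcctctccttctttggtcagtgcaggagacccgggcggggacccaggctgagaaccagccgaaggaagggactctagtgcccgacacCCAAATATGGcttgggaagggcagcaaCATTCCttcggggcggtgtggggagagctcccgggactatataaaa
Mybph: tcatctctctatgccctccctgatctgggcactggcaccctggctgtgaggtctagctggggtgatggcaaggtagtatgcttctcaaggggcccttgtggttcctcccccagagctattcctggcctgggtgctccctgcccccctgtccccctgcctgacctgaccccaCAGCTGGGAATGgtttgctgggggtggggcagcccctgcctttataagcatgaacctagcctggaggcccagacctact
Mybpc2: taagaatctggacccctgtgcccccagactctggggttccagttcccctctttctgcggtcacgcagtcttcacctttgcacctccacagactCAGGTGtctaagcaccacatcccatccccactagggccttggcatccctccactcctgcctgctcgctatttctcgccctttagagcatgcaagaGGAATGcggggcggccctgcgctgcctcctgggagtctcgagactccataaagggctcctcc
Myom3: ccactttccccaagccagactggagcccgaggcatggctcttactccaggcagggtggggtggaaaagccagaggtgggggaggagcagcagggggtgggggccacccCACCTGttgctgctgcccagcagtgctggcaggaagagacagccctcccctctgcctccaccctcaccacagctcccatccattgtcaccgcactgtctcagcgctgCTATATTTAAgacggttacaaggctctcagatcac
Ttn: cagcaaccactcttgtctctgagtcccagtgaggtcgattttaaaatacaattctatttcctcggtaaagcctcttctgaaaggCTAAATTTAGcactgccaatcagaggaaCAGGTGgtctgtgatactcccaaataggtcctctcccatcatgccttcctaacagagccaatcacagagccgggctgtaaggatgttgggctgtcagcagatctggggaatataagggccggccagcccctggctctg
Counted from the start site, where -1 is the base just before it, Acta1 held E-boxes at -238 and -221, a CArG box at -73 and an MCAT at -46. In Mybph an E-box at -79 was directly followed by an MCAT at -73, whereas in Mybpc2 the E-box lay at -157 and the MCAT at -62. Myom3 held an E-box at -142 and a MEF2 site at -35, and Ttn held an E-box at -138 and a MEF2 site at -166. No match in these windows overlapped another.

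RefSeq promoters were matched for 29 of the 41 genes, with 32 windows because some have more than 1 start. Because windows of 1 gene can overlap, matches were counted by gene, in any of its windows. An E-box was present in 82.8% of the 29 genes and in 69.3% of all 27018 mouse genes with windows of the same length. The MCAT was present in 27.6% against 14.4%, the MEF2 site in 13.8% against 3.41% and the CArG box in 10.3% against 1.62%. The 3 genes with a CArG box, Acta1, Ldb3 and Myom1, were called lower at day 3. So were 16 of the 29 matched genes and 19.8% of all tested genes. The Acta1 call was lost when any of 8 of 10 single libraries was left out. Of the 4 genes with a MEF2 site, 3 were called neither higher nor lower at that time, as were 11 of the 29. The matches are counts of letters, with no test, and do not show that a factor binds or that a site goes with a direction.

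Expression was measured as FPKM (fragments per kilobase of transcript, divided by a library total), and compared as log2(FPKM + 1) in a single limma fit of the 27 samples. A gene was called higher or lower at a Benjamini-Hochberg adjusted p under 0.05 over the 14630 tested genes. Log2 fold changes are differences of group means of log2(FPKM + 1), which understates the change of low genes, and are given ± the standard error of the fit. The libraries held 14376395 to 24436763 reads, recovered from the FPKM. The share of all reads that fell on the members was 15.5 to 17.3% in uninjured muscle. It was 8.02 to 16.4% in the day 3 muscles, where the median was 11.8%, and 9.09 to 18.6% in those of day 7. The day 14 libraries spanned 12.6 to 18.3% and the day 21 libraries 13.1 to 19.2%.

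Of the 27 libraries, 9 lay nearer to the centre of another group than to their own over all genes. At day 7, replicate 3 lay nearest to uninjured muscle, replicate 6 to day 21 and replicate 5 to day 3, and day 3 replicate 5 lay nearest to day 7. Counts at day 7 are therefore given with and without replicates 3 and 6. Markers of myofibres summed to 28016 to 35233 FPKM in uninjured muscle and to 4104 to 16526 at day 3. Pvalb alone held 13676 to 24764 and 1264 to 10251 FPKM of these sums. Over the same comparison the 8 leukocyte markers summed to a median of 22.3 FPKM in uninjured muscle and 1426 at day 3. Lyz2 alone held 12.6 to 20.7 and 259 to 1806 FPKM of the leukocyte sums. All 8 leukocyte markers were called higher at day 3, as were 23.4% of all tested genes. The summed cardiac markers stayed at or under 2.24 FPKM in every library, and 1 of the 3, Myl7, was at 0 throughout.

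In uninjured muscle the members spanned a wide range of levels. Mean FPKM was over 1000 for 10 genes, between 100 and 1000 for 16, between 10 and 100 for 11 and at most 10 for 4. Acta1, the skeletal actin of the thin filament, stood first at 32612 ± 4327 FPKM (SD, n = 5). Fast troponin T (Tnnt3, 15686 ± 1672) and the fast regulatory light chain (Mylpf, 12913 ± 646) came next, and fast troponin I (Tnni2, 10433 ± 1391) and the alkali light chain Myl1 (8782 ± 755) followed. Among these 4 genes below Acta1, the samples of each neighbouring pair overlapped. Ttn, whose transcript is the longest of the list at 116825 bases, reached 55.8 ± 5.06 FPKM and still collected 37760 to 124783 reads per library.

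The spread among uninjured muscles was small for most members, with a median coefficient of variation of 13.3%, from 3.91% for the myosin chaperone Unc45b. It passed 30% for 6 genes, namely Tmod1, Myoz3, Actn2, Myom3, Mybph and Tnnc2. Uninjured replicates 2, 4 and 5 had Tmod1 at 24.2, 22 and 19.8 FPKM and replicates 1 and 3 had 9.42 and 5.81. Myoz3 and Mybpc2 were also higher in those 3 muscles, with Myoz3 at 11.6 to 24.2 against 5.88 and 8.20 FPKM and Mybpc2 at 780 to 889 against 430.7 and 525.8. Actn2 ran the other way, at 307 to 437 FPKM in replicates 2, 4 and 5 and at 683 and 593 in replicates 1 and 3. These differences all lie within the uninjured group. The deposited length of Myoz3 was 870 bases, against 3436 exon bases in the gene annotation (GENCODE M21). Of the Tmod1 exon bases, 32.6% are shared with Tstd2 on the other strand. The listed levels of Myoz3 and Tmod1 are therefore uncertain.

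**Figure D1:**
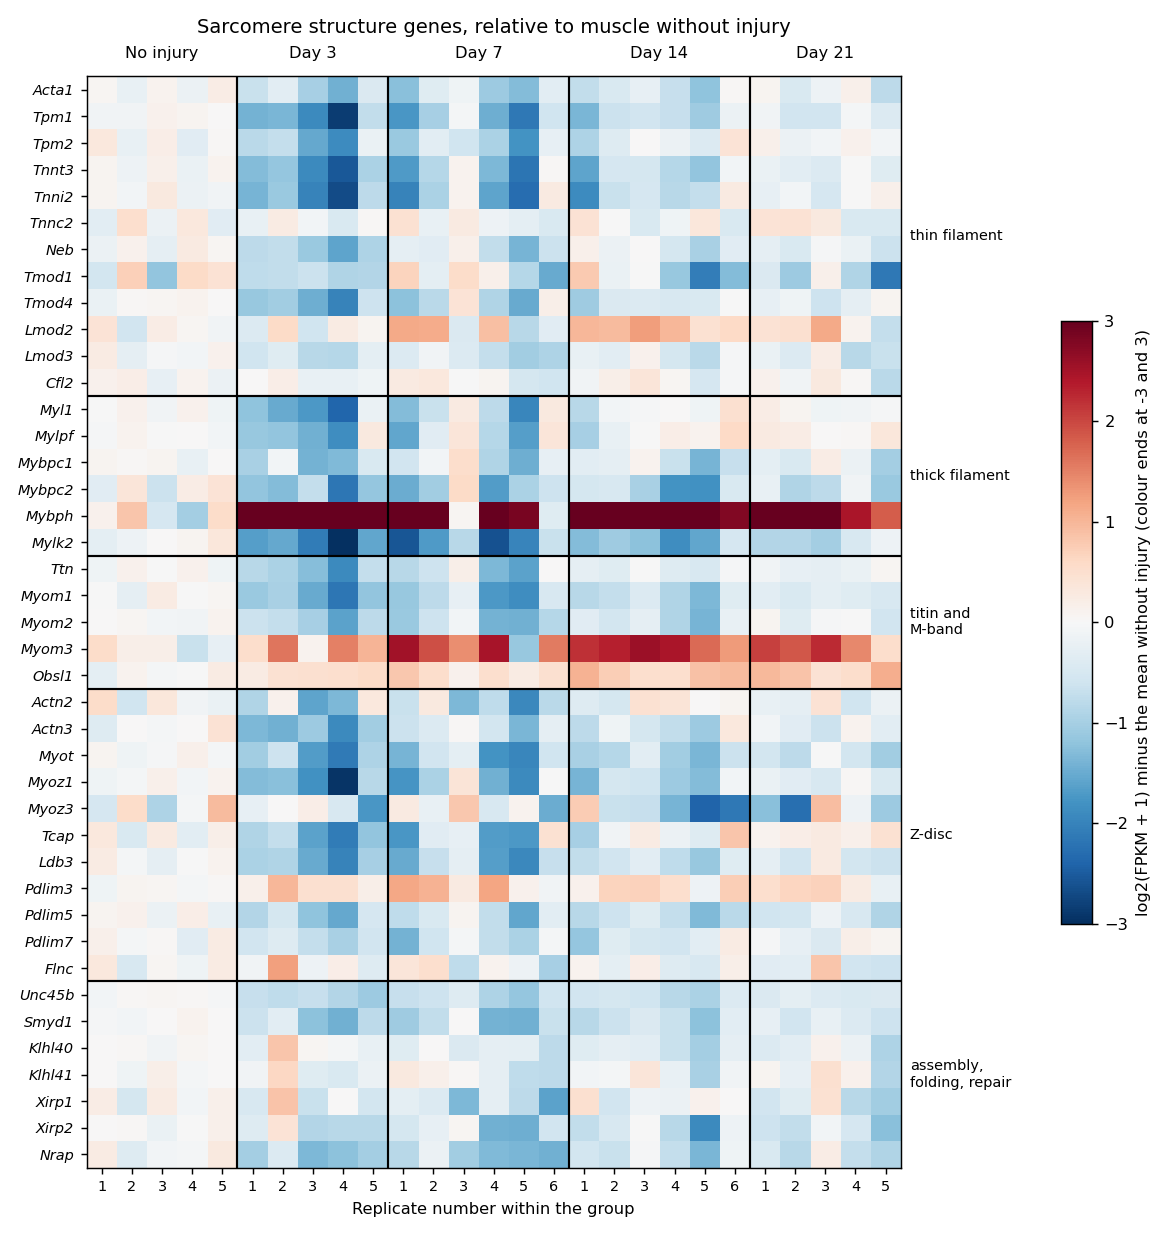
The heat map gives log2(FPKM + 1) of each of the 41 genes (rows, grouped by place in the sarcomere) minus its uninjured mean, for each of the 27 muscles (columns, by group and replicate number). Most rows are blue at day 3, where 26 genes were called lower, Mybph and Obsl1 are red, and day 7 replicates 3 and 6 resemble the uninjured columns in many rows. Changes of direction on FPKM rescaled to a common sum are listed for the genes called at day 3 and for Cfl2, Klhl41 and Flnc. Of these, Acta1, Cfl2, Klhl41, Lmod3 and Pdlim7 changed direction at day 3.

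At day 3, 26 of the 41 members were called lower and 2 were called higher. Over all tested genes 19.8% were called lower and 23.4% higher in that comparison. The median member had a log2 fold change of -0.89, against 0.01 for the median tested gene, and 35 of 41 members lay under that median. The day 7 muscles had 16 members lower and 3 higher (14.4% and 15% of all tested genes), and those of day 14 had 7 lower and 3 higher (11.3% and 9.02%). In the day 21 muscles limma called 0 of the 41 lower and 2 higher, with 1.69% and 1.74% of all tested genes, and 2 had an unadjusted p under 0.05 in the lower direction. With voom weights 0 were lower and 1 higher. Shares of all tested genes were not counted at an unadjusted p or with voom weights. Other fits called more at day 21, namely 1 lower and 3 higher with a block by replicate number (2.77% and 2.67% of all tested genes), 2 and 3 with a block by replicate letter (4.61% and 3.81%), and 5 and 3 when only the 2 groups were fitted (4.92% and 5.17%). The median log2 fold change of the members went from -0.69 on day 7 through -0.49 on day 14 to -0.26 on day 21. The comparisons with uninjured muscle share the same 5 control muscles.

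Compared directly, 17 members were higher at day 21 than at day 3 and 0 were lower by the limma test, against 9.23% and 16.2% of all tested genes. At an unadjusted p under 0.05, 20 were higher and 0 lower, and voom weights also gave 17 calls. The shares of all tested genes were not counted for these 2 settings. Among the 17 members called by limma, the largest difference was that of Tcap, the titin cap of the Z-disc. Its log2 fold change was 1.54 ± 0.38 (limma adjusted p = 0.0047). Tnni2 (1.46 ± 0.44), Myl1 (1.42 ± 0.37), Myoz1 (1.34 ± 0.38), Tnnt3 (1.31 ± 0.38) and Tpm1 (1.31 ± 0.34) followed. Without day 7 replicates 3 and 6, which enter the shared estimate of spread, day 7 had 26 members lower and 4 higher. The same refit called 19.6% of all tested genes lower and 21.3% higher, so calls rose over all genes too. Single libraries also moved the totals. Leaving out day 3 replicate 4 gave 7 calls in place of 17 between day 21 and day 3, and leaving out uninjured replicate 1 or day 7 replicate 1 gave 12 in place of 19 at day 7. At day 14 the 10 calls became 6 without uninjured replicate 4 or 5 and 5 without day 14 replicate 5. Shares of all tested genes were not counted in the refits without a single library. Those totals therefore do not show whether the members moved apart from all genes. Without day 3 replicate 5 and day 7 replicate 5, day 3 had 27 lower and 3 higher (19.7% and 23.4% of all tested genes), day 7 had 9 lower and 4 higher (11.1% and 12.5%) and day 21 had 1 lower and 3 higher (2.36% and 2.63%). Several single calls were lost when any of at least 5 libraries was left out. These were Acta1, Mybpc1 and Mylpf at day 3, Tnnt3, Tpm2, Ttn, Pdlim5, Pdlim7 and Xirp1 at day 7, Mybpc2, Myom1, Myot and Smyd1 at day 14 and Mybph at day 21.

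Of the 12 thin filament genes, 8 were lower on day 3 and 4 on day 7, with 0 on day 14 and day 21 by the limma test, and none of the 12 was called higher at any time. Over all tested genes 19.8%, 14.4%, 11.3% and 1.69% were lower at days 3, 7, 14 and 21, and 23.4%, 15%, 9.02% and 1.74% higher. These shares apply to the counts of each place in the sarcomere. Tpm1, the alpha-tropomyosin that lies along actin, had 3362, 3372, 3991, 3889 and 3657 FPKM in the uninjured muscles and 1357, 1406, 963, 505 and 2198 FPKM at day 3. The highest muscle at day 3 lay below the lowest uninjured one. The log2 fold change was -1.66 ± 0.34 (3.16-fold lower, adjusted p = 0.00041). At day 7 the values were 1091, 1816, 3484, 1325, 825 and 2419 FPKM, with replicate 3 inside the uninjured range, and the log2 fold change was -1.17 ± 0.33 (adjusted p = 0.010). Day 14 ran from 1413 to 3213 FPKM and day 21 from 2430 to 3475 FPKM, with log2 fold changes of -0.76 ± 0.33 and -0.35 ± 0.34 that were not called.

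Tnni2, the fast inhibitory subunit of troponin, had 10990, 9824, 12604, 9153 and 9594 FPKM in uninjured muscle and 3959, 4751, 2570, 1610 and 6002 FPKM at day 3. All 5 injured values lay below all uninjured values, and the log2 fold change was -1.60 ± 0.44 (3.03-fold lower, adjusted p = 0.0046). At day 7, replicates 3 and 6 reached 11229 and 12559 FPKM while the other 4 muscles held 2112 to 5374 FPKM. The day 7 comparison was not called with all 6 muscles (log2 fold change -1.07 ± 0.42) and was called without replicates 3 and 6 (-1.70, adjusted p = 0.00085). At day 21 the level was 7317 to 11608 FPKM.

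Tnnt3, which ties troponin to tropomyosin, had a log2 fold change of -1.57 ± 0.38 at day 3 and -0.99 ± 0.37 at day 7, both called. The day 7 call of Tnnt3 was lost when any of 9 of the 11 libraries was left out (adjusted p up to 0.13), and its direction turned to 0.11 on quantile normalized values. Tmod4, the skeletal cap of the pointed end of actin, had -1.25 ± 0.29 at day 3, and Neb, which runs along the thin filament, had -1.03 ± 0.23. Tpm2, the beta-tropomyosin, was lower at day 3 (-1.03 ± 0.31) and day 7 (-0.84 ± 0.30), and turned to 0.32 and 0.06 when samples were quantile normalized. Acta1 was called lower only at day 3, at -0.77 ± 0.31 (adjusted p = 0.048), and its sign turned positive on common-sum values (0.05) and on quantile normalized values (0.49). The actin nucleator Lmod3 was lower at day 3 (-0.59 ± 0.20) and day 7 (-0.60 ± 0.20), and turned on common-sum values at both times (0.23 and 0.12). The nucleator Lmod2, the pointed-end cap Tmod1 and muscle cofilin (Cfl2, which severs and recycles actin filaments) were not called at any time.

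Tnnc2, the calcium-binding subunit of fast troponin, was listed at 0 to 0.944 FPKM in all 27 libraries, which is 0 to 19 reads. This is far from the 1610 to 17315 FPKM of its partners Tnni2 and Tnnt3 in the same complex. In the gene annotation (GENCODE M21 on GRCm38), Tnnc2 lies on the minus strand of chromosome 2 from 164777161 to 164779967, and 74% of its 800 exon bases are shared with Ube2c on the opposite strand. The libraries did not keep the strand, and reads that fall in 2 genes cannot be assigned to either. The Tnnc2 values were therefore not read as expression. The slow and cardiac troponin C gene Tnnc1, chosen for mention after its values were seen, was at 3.43 to 10.5 FPKM in uninjured muscle and 21.2 to 110 FPKM at day 3.

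**Figure D2:**
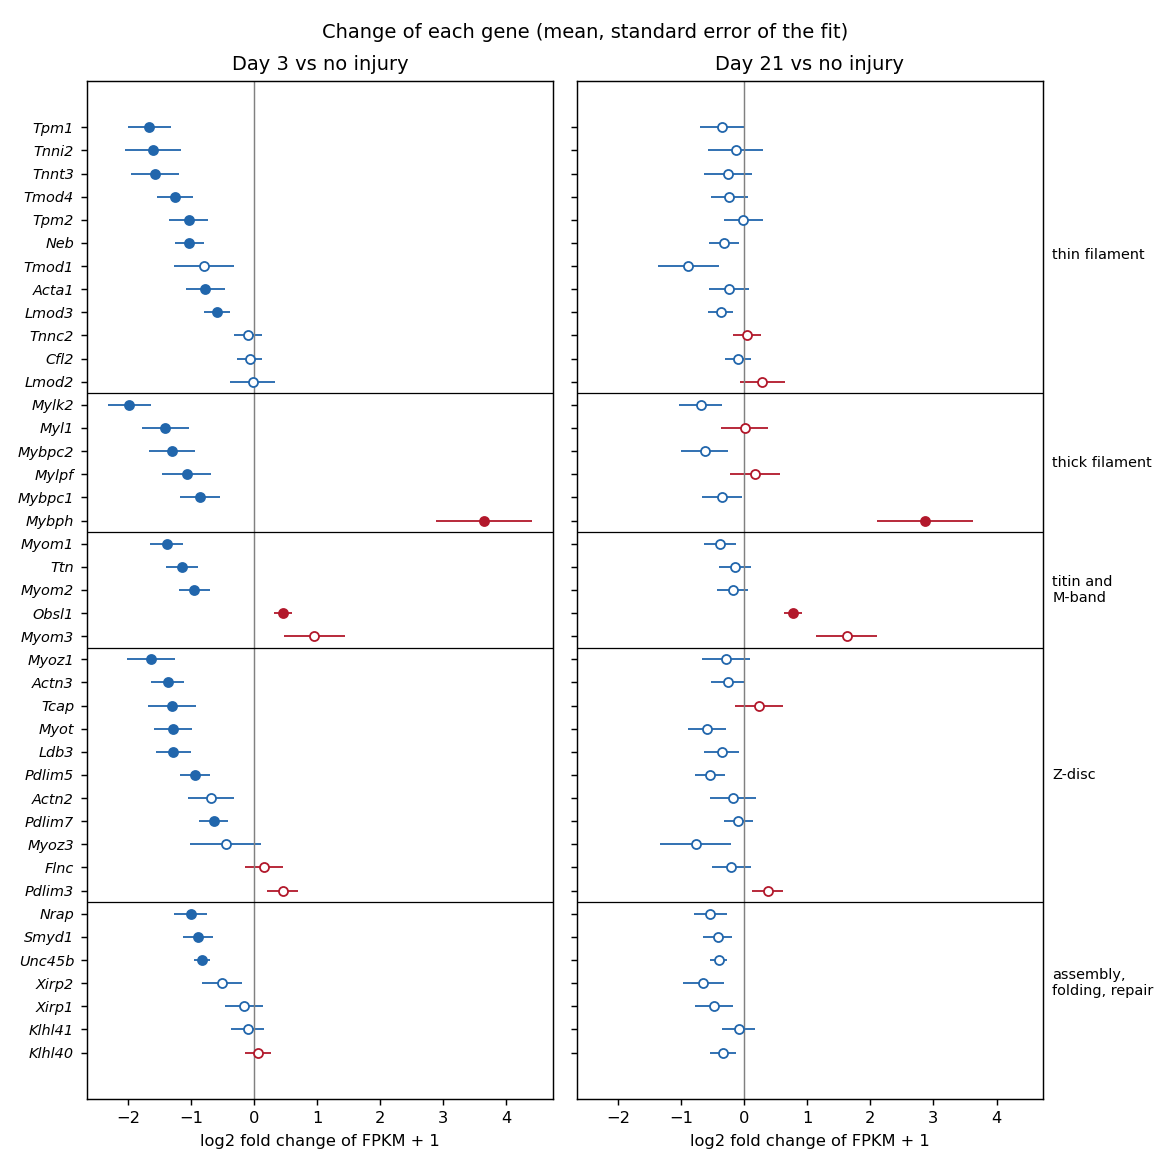
The 2 panels give the log2 fold change of FPKM + 1 (horizontal axis) of each gene at day 3 and at day 21 against uninjured muscle, with bars for the standard error, blue below 0 and red above 0, and filled points for genes called at an adjusted p under 0.05. There are 28 filled points at day 3 and 2 at day 21, Mybph and Obsl1. On common-sum values the filled Acta1, Lmod3 and Pdlim7 points at day 3 lie on the other side of 0. The open Cfl2 and Klhl41 points do so too, and other open points can and are not listed.

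Of the 6 thick filament genes, 5 were lower and 1 higher at day 3, and 1 and 1 at day 7. Mylk2, the skeletal kinase that phosphorylates the regulatory light chain, had 281, 307, 346, 365 and 436 FPKM in uninjured muscle and 108, 118, 79.8, 40.7 and 116 FPKM at day 3. Its log2 fold change of -1.98 ± 0.34 (3.94-fold lower, adjusted p = 6.1e-05) was the largest fall of the list. It stayed lower at day 7 (55.4 to 216 FPKM, -1.73 ± 0.32, adjusted p = 0.00056) and at day 14 (93.6 to 240 FPKM, -1.25 ± 0.32, adjusted p = 0.0087). At both times the highest injured muscle was below the lowest uninjured one. At day 21 the 5 muscles held 186, 186, 168, 244 and 306 FPKM, with only replicate 5 inside the uninjured range, and the log2 fold change of -0.69 ± 0.34 was not called. Mylk2 was the only member called lower at days 3, 7 and 14 under each of 4 scalings (deposited, common sum, own read total and quantile).

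Both fast light chains were called lower at day 3 alone. Myl1 had 8621, 9579, 8172, 9558 and 7978 FPKM in uninjured muscle and 3780, 3048, 2635, 1686 and 7573 FPKM at day 3, where replicate 5 came close to the uninjured muscles without reaching them. Its log2 fold change was -1.41 ± 0.37 at day 3 (2.66-fold lower, adjusted p = 0.0034), -0.69 ± 0.36 at day 7, -0.10 ± 0.36 at day 14 and 0.01 ± 0.37 at day 21, of which only the first was called. Mylpf had 12274 to 13967 FPKM in uninjured muscle and 5889, 5667, 4738, 3534 and 15750 FPKM at day 3. Here replicate 5 lay above every uninjured muscle, the log2 fold change was -1.07 ± 0.39 (adjusted p = 0.030), and quantile normalized values gave 0.31.

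The myosin-binding proteins, which brace the thick filament and tune its cross-bridges, moved in opposite directions. Mybph, the smaller homologue of myosin-binding protein C, had 2.45, 4.64, 1.24, 0.558 and 3.61 FPKM in uninjured muscle and 29.9, 42.5, 48.8, 49.6 and 27 FPKM at day 3. The log2 fold change was 3.64 ± 0.76 (12.5-fold higher, adjusted p = 0.00044), the largest rise of the list at that time. At day 7 the muscles held 93.4, 65.3, 2.29, 114, 21.7 and 1.45 FPKM, so replicates 3 and 6 lay within the uninjured range and the other 4 lay far above it. With all 6 muscles the log2 fold change was 2.84 ± 0.73 (adjusted p = 0.0055), and without replicates 3 and 6 it was 4.33. At day 14 it was 3.67 ± 0.73 (20.8 to 75.2 FPKM, adjusted p = 0.0017), with every muscle above the uninjured ones.

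At day 21 the 5 muscles still held 38.0, 29.4, 27.7, 16.2 and 10.2 FPKM of Mybph, all above the uninjured maximum of 4.64 (log2 fold change 2.87 ± 0.76, adjusted p = 0.034). This call was lost on common-sum values (log2 fold change 2.92, adjusted p = 0.16) and when any of 7 single libraries was left out, although the direction held. Mybph lies on chromosome 1 from 134193448 to 134201232 on the plus strand, and 49.9% of its exon bases are shared with Adora1 on the other strand. Adora1 itself was at 0 to 1.42 FPKM. In the same muscles the fast isoform Mybpc2 was lower at day 3 (-1.30 ± 0.37) and day 14 (-1.01 ± 0.35), and the slow isoform Mybpc1 was lower at day 3 (-0.85 ± 0.32). The day 14 call of Mybpc2 was lost when any of 6 of the 11 libraries was left out (adjusted p up to 0.11), and the day 3 call of Mybpc1 when any of 7 of the 10 was (adjusted p up to 0.097).

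The genes of titin and the M-band split, with 3 lower and 1 higher of 5 at day 3 and 3 lower and 2 higher at day 7. Ttn had 50.6, 61.0, 55.4, 60.9 and 51.2 FPKM in uninjured muscle and 30.6, 28.4, 22.3, 14.2 and 33.3 FPKM at day 3, a log2 fold change of -1.14 ± 0.25 (2.20-fold lower, adjusted p = 0.00076). The groups did not overlap. At day 7 it was at 17.6 to 62.7 FPKM (log2 fold change -0.71 ± 0.24, adjusted p = 0.029). On common-sum values the day 7 log2 fold change of Ttn was 0.0017 and no longer called, and the call was also lost when any of 5 single libraries was left out. At day 21 the level was 46.2 to 58.0 FPKM. Myom1, the myomesin found in all striated fibres, had 139, 118, 166, 141 and 146 FPKM in uninjured muscle and 64.7, 71.4, 48.7, 30.7 and 61.6 FPKM at day 3 (-1.39 ± 0.26, 2.62-fold lower, adjusted p = 0.00015). It stayed lower at day 7 (-1.04 ± 0.25) and day 14 (-0.76 ± 0.25). At day 21 its 5 muscles held 100 to 115 FPKM, all below the uninjured muscles, and the log2 fold change of -0.38 ± 0.26 was not called (adjusted p = 0.43).

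Myom2, the myomesin of fast fibres, was lower at day 3 (-0.94 ± 0.24) and day 7 (-0.92 ± 0.23). Myom3, the myomesin of intermediate fibres, ran the other way, with 5.99, 4.38, 4.36, 1.99 and 3.02 FPKM in uninjured muscle and 5.90, 13.5, 4.14, 12.5 and 8.63 FPKM at day 3, where the groups overlapped and the gene was not called. At day 7 it had 26.2, 17.3, 11.4, 25.3, 1.16 and 13.1 FPKM, with replicate 5 below and the other 5 above every uninjured muscle (1.46 ± 0.46, 2.75-fold higher, adjusted p = 0.020). At day 14 all 6 muscles lay above the uninjured ones at 20.8, 22.9, 27, 24.9, 14.4 and 10.6 FPKM (2.09 ± 0.46, 4.25-fold higher, adjusted p = 0.0032). The day 21 values were 18.8, 16.2, 21.5, 11.99 and 5.80 FPKM, with replicate 5 inside the uninjured range, and the log2 fold change of 1.62 ± 0.48 missed the threshold (adjusted p = 0.057).

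Obsl1, the obscurin-like protein that links titin and myomesin at the M-band and that other cell types also make, was called higher at every time point. It had 6.47, 8.98, 7.90, 8.08 and 10.01 FPKM in uninjured muscle and 10.0007, 11.6, 11.96, 12.2 and 12.7 FPKM at day 3 (0.46 ± 0.15, 1.37-fold higher, adjusted p = 0.014). Only the lowest day 3 muscle lay within the uninjured range, just under its top. At day 7 it ranged from 9.02 to 15.2 FPKM, overlapping the uninjured muscles (0.45 ± 0.14, adjusted p = 0.019). At day 14 it ranged from 12.03 to 17.8 FPKM (0.77 ± 0.14, adjusted p = 0.00088). At day 21 the 5 muscles held 16.99, 15.7, 11.5, 12.3 and 18.5 FPKM, all above the uninjured ones (0.78 ± 0.15, 1.71-fold higher, adjusted p = 0.0046), a call lost on common-sum values (log2 fold change 0.93, adjusted p = 0.13). The leukocyte markers at day 21 summed to 31.2 to 57.3 FPKM against 16.3 to 25.04 in uninjured muscle. Most of that sum was 1 gene, Lyz2, at 24.3 to 45.5 against 12.6 to 20.7 FPKM. The fibroblast markers summed to 131 to 213 against 57.9 to 139 FPKM. The part of leukocytes and fibroblasts in the Obsl1 result was not tested.

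**Figure D3:**
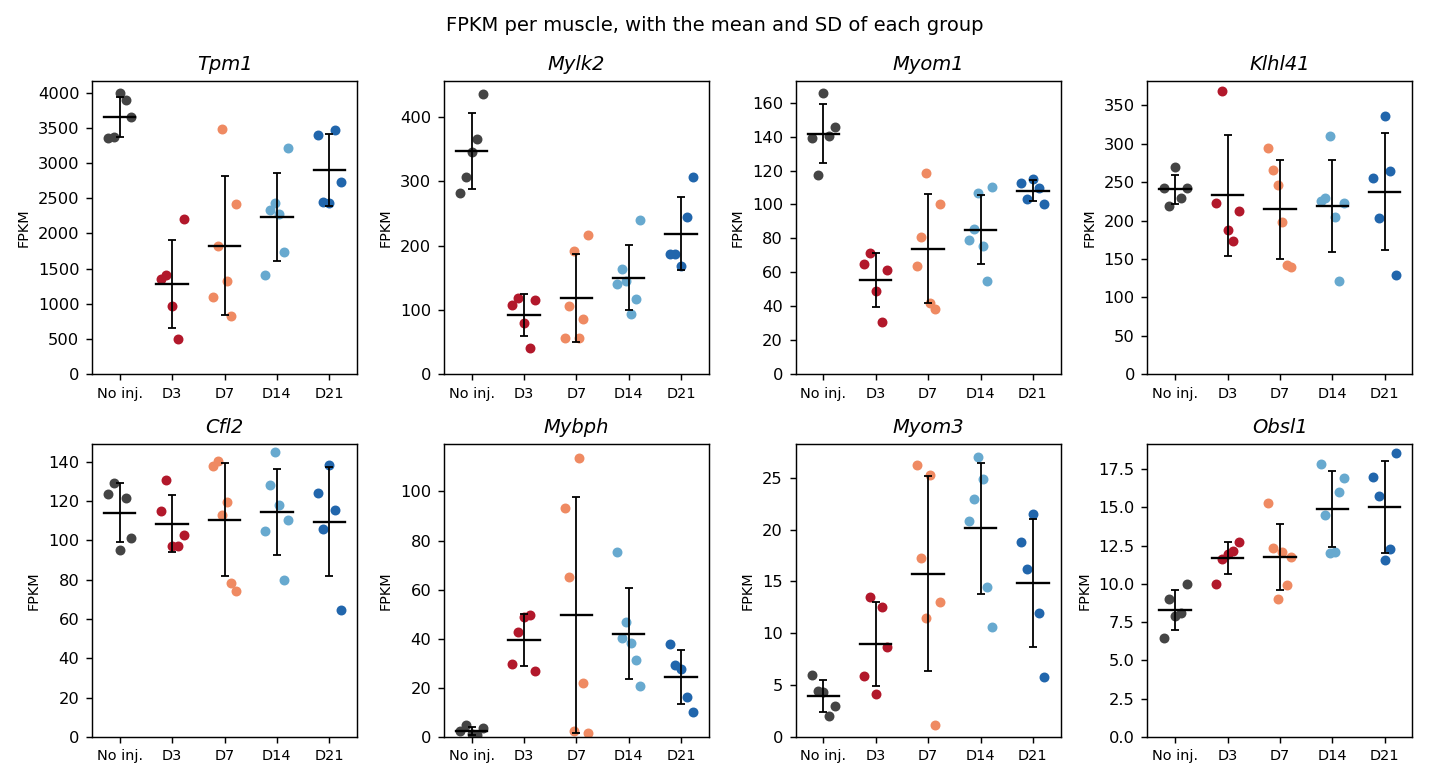
Each panel plots FPKM (vertical axis, from 0) of 1 gene in each muscle of the 5 groups, with a line for the mean and bars for the SD. Tpm1, Mylk2 and Myom1 are lowest at day 3 and climb towards the uninjured level, Klhl41 and Cfl2 overlap the uninjured muscles at all times, and Mybph, Myom3 and Obsl1 lie above them at day 14; on common-sum values Cfl2 and Klhl41 lie above 0 in log2 fold change at day 3.

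Among the 11 Z-disc genes, 7 were lower on day 3, 4 on day 7 and 2 on day 14, with 0 on day 21 by the limma test, and none was called higher. Myoz1, the fast calsarcin that binds calcineurin and alpha-actinin, had 1305, 1370, 1594, 1356 and 1536 FPKM in uninjured muscle and 578, 595, 403, 186 and 802 FPKM at day 3 (-1.63 ± 0.38, 3.10-fold lower, adjusted p = 0.0012). Actn3, the alpha-actinin of fast fibres, had 1845, 2444, 2333, 2447 and 3284 FPKM in uninjured muscle and 954, 891, 1132, 645 and 1172 FPKM at day 3 (-1.37 ± 0.27, 2.59-fold lower, adjusted p = 0.00022). For both genes the groups did not overlap at day 3. At day 7 both overlapped the uninjured range and were not called, with Actn3 at 934 to 2480 FPKM and Myoz1 at 379 to 1858 FPKM.

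Myot, which bundles actin at the Z-disc, was lower at day 3 (-1.28 ± 0.30), day 7 (-1.10 ± 0.29) and day 14 (-0.87 ± 0.29), and Pdlim5, a PDZ and LIM protein bound to alpha-actinin, was lower at the same 3 times (-0.93 ± 0.24, -0.62 ± 0.23 and -0.77 ± 0.23). Pdlim5 at day 7 turned to 0.08 on common-sum values. Ldb3, known as cypher or ZASP, was lower at day 3 (-1.28 ± 0.27) and day 7 (-1.12 ± 0.26), and Tcap was lower at day 3 (-1.30 ± 0.38). Pdlim7, known as enigma, had -0.64 at both day 3 and day 7, and these turned to 0.18 and 0.08 on common-sum values. Actn2, Myoz3, Pdlim3 and Flnc were not called at any time on the deposited values. Pdlim3, another PDZ and LIM protein, had 90.5 to 104 FPKM in uninjured muscle and 110, 197, 138, 138 and 112 FPKM at day 3, so every injured muscle lay above every uninjured one, but its log2 fold change of 0.46 ± 0.25 missed the threshold (adjusted p = 0.14). On common-sum values it was called higher at day 3 (1.28) and at day 7 (1.33).

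The 7 genes of assembly, folding and repair had a median log2 fold change of -0.51 at day 3, against -0.89 for all members. Of these, 3 were lower on day 3, 4 on day 7 and 2 on day 14, with 0 on day 21 by the limma test. Unc45b, the chaperone that folds the myosin head, had the smallest spread of the list and ranged from 54.5 to 59.7 FPKM in uninjured muscle. It had 35.3, 33.6, 35.2, 30.7 and 26.4 FPKM at day 3 (-0.82 ± 0.13, 1.77-fold lower, adjusted p = 2.6e-05), was lower at day 7 (-0.73 ± 0.12) and day 14 (-0.65 ± 0.12), and still held 41.5 to 46.6 FPKM at day 21. All 22 injured muscles lay below all uninjured ones, although day 21 was not called (-0.40 ± 0.13, adjusted p = 0.081). Its day 3 call was lost on common-sum values.

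Smyd1, a methyltransferase that works with the myosin chaperones, had 105, 103, 109, 117 and 109 FPKM in uninjured muscle and 68.7, 87.5, 45.7, 39.1 and 62.2 FPKM at day 3 (-0.89 ± 0.23, 1.85-fold lower, adjusted p = 0.0030). It was lower at day 7 (-0.88 ± 0.22) and day 14 (-0.69 ± 0.22), and at day 21 its 69.8 to 93.7 FPKM still lay below every uninjured muscle without a call (-0.42 ± 0.23, adjusted p = 0.32). Nrap, an actin scaffold of early myofibrils, had 276, 177, 218, 224 and 284 FPKM in uninjured muscle and 114, 175, 91.1, 98.0 and 114 FPKM at day 3 (-1.01 ± 0.26, 2.01-fold lower, adjusted p = 0.0031). At day 7 it had 129, 205, 112, 91.9, 89.7 and 85.0 FPKM (-1.03 ± 0.25, adjusted p = 0.0039), and only replicate 2 reached the uninjured range.

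Klhl40 and Klhl41, kelch proteins that stabilize thin filament partners such as nebulin and Lmod3, were not called at any time. Klhl41 had 218 to 270 FPKM in uninjured muscle and 223, 369, 187, 174 and 212 FPKM at day 3, a log2 fold change of -0.10 ± 0.26 that turned to 0.73 on common-sum values. Klhl40 had 41.1 to 46.2 FPKM in uninjured muscle and 35.6 to 80.8 FPKM at day 3, with replicate 2 highest for both genes. The same muscle was the highest of its group for the repair proteins Xirp1 (44.6 FPKM, others 14.9 to 24.3) and Xirp2 (176 FPKM, others 71.1 to 99.8) and for filamin C (Flnc, 160 FPKM, others 51.0 to 77.2), which binds them. Xirp1 was called lower at day 7 alone (-0.79 ± 0.29), and Xirp2 and Flnc were not called, with a log2 fold change of 0.16 for Flnc at day 3 that became -0.11 without replicate 2.

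Ratios of paralogs within each muscle do not depend on how libraries are scaled, apart from the pseudocount, and 10 were compared with exact two-sided permutation tests, with adjustment over the 40 tests. The smallest p such tests can give is 0.00794 for 5 against 5 muscles and 0.00433 for 5 against 6. Of the 10 ratios, 4 passed an adjusted p of 0.05 on day 3, 3 on day 7, 5 on day 14 and 3 on day 21. Each is the log2 ratio of FPKM + 1, and differences are given ± the standard error.

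The myomesin balance moved from the fast isoform towards Myom3. Myom2 exceeded Myom3 by a log2 ratio of 4.29, 4.70, 4.58, 5.39 and 5.17 in the uninjured muscles and of 3.65, 2.51, 3.72, 1.72 and 3.01 at day 3, which do not overlap (difference -1.90 ± 0.42, exact permutation adjusted p = 0.024). The difference was -2.38 ± 0.59 at day 7 (adjusted p = 0.025), where the groups overlapped through replicate 5, and -2.70 ± 0.33 at day 14 (adjusted p = 0.024). At day 21 the 5 ratios were 2.84, 2.61, 2.55, 3.35 and 3.72, all still below the uninjured range (-1.81 ± 0.30, adjusted p = 0.024). This ratio passed at all 4 times.

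The ratio of Mybph to Mybpc2 was -7.25, -7.24, -7.59, -8.97 and -7.59 in uninjured muscle and -3.26, -2.64, -3.04, -1.57 and -3.43 at day 3 (difference 4.94 ± 0.46, exact permutation adjusted p = 0.024). At day 7 it did not pass with all 6 muscles (3.71 ± 1.33, adjusted p = 0.10), since replicates 3 and 6 stood at -8.24 and -7.48 while the others ran from -3.93 to -0.88. It passed at day 14 (4.68 ± 0.46) and day 21 (3.50 ± 0.45), both at an adjusted p of 0.024 in the exact permutation test. As listed, Mybpc2 had the higher FPKM in all 27 muscles, but reads in the exon bases that Mybph shares with Adora1 could not be assigned, so the order of the 2 levels is uncertain where they were closest, at 114 FPKM of Mybph and 209.8 of Mybpc2 in day 7 replicate 4.

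Muscle cofilin and sarcomeric alpha-actinin fell relative to their non-muscle paralogs. The log2 ratio of Cfl2 to Cfl1 was 1.34 to 1.95 in uninjured muscle and -0.83, -0.37, -1.53, -1.66 and -0.38 at day 3, so that Cfl1 became the higher of the pair in all 5 muscles (difference -2.56 ± 0.30, exact permutation adjusted p = 0.024). Every muscle stayed below the uninjured range at day 7 (-1.33 ± 0.50), day 14 (-1.08 ± 0.31) and day 21 (-0.76 ± 0.27), each at the same adjusted p of 0.024 in the exact permutation test. Cfl2 itself was at 95.1 to 129 FPKM in uninjured muscle and 97.0 to 131 FPKM at day 3, while Cfl1 had a log2 fold change of 2.49 ± 0.34. The ratio of Actn2 to Actn1 fell at day 3 (-2.58 ± 0.58) and day 7 (-2.12 ± 0.50), both at an adjusted p of 0.024 by exact permutation, and did not pass at day 14 or day 21. Cfl1, Actn1 and the other non-muscle paralogs are also made by leukocytes and fibroblasts, and the part of those cells in these ratios was not tested. Of the 8 leukocyte markers, limma called 8 higher at day 3, 7 at day 7 and 2 at day 14. Of the 6 fibroblast markers it called 5 higher at each of these times. At day 21 it called 2 of all these markers, both of fibroblasts (Col1a1 and Col1a2). Over all tested genes 23.4%, 15%, 9.02% and 1.74% were called higher at days 3, 7, 14 and 21.

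Lmod2 and Lmod3, both nucleators of thin filaments, were near parity and shifted towards Lmod2. The log2 ratio was -0.23, -0.68, -0.13, -0.26 and -0.62 in uninjured muscle and 0.85, 0.87, 0.74, 1.13, 0.90 and 0.26 at day 14 (difference 1.17 ± 0.16, exact permutation adjusted p = 0.024). It did not pass at day 3 (0.56 ± 0.22), day 7 (0.86 ± 0.31) or day 21 (0.66 ± 0.22). The ratio of Flnc to its non-muscle paralog Flna passed at day 14 alone (-0.71 ± 0.27, exact permutation adjusted p = 0.046), and no longer passed when any of 8 of the 11 libraries was left out. The balance of fast to general alpha-actinin, Actn3 to Actn2, was not shown to move, with differences from -0.69 ± 0.48 at day 3 to 0.34 ± 0.41 at day 7, nor was that of Mybpc1 to Mybpc2 (0.28 ± 0.31 to 0.48 ± 0.32). The ratios of Tmod1 to Tmod4 and of Myoz3 to Myoz1 did not pass at any time, and the listed levels of Tmod1 and Myoz3 are uncertain.

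**Figure D4:**
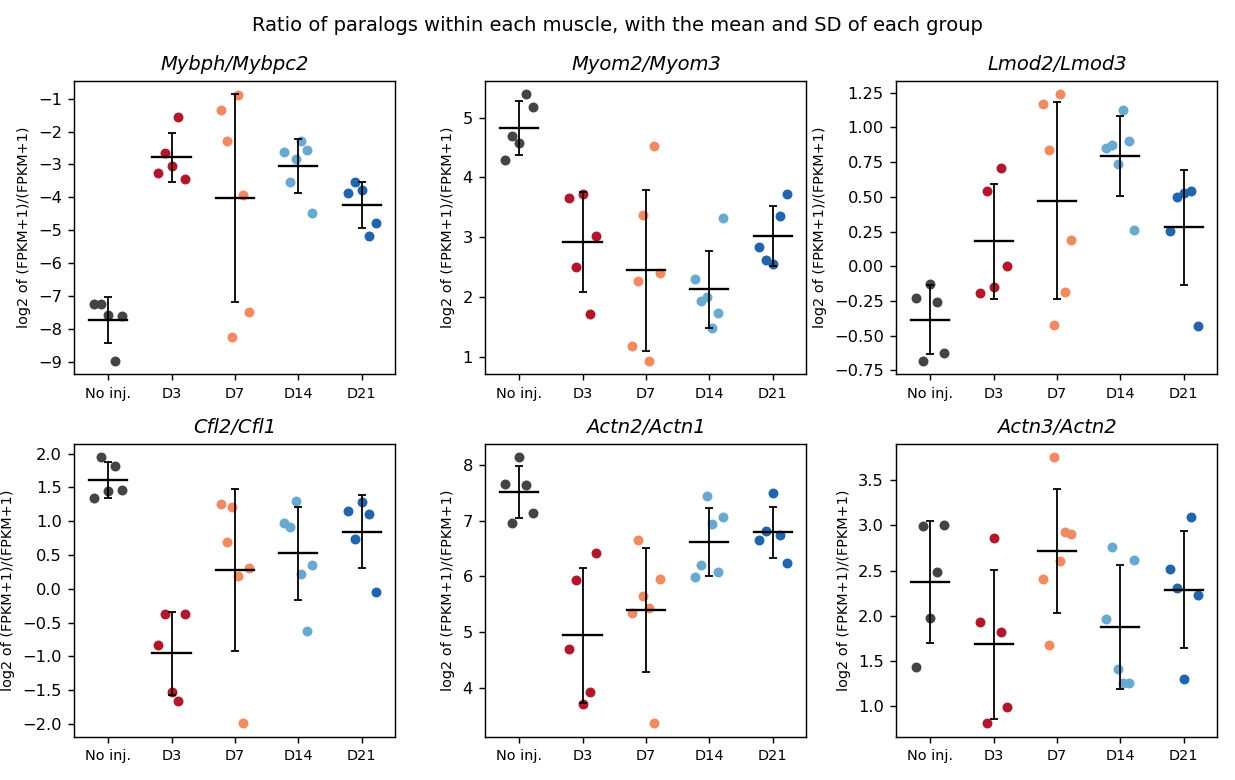
Each panel plots the log2 ratio of FPKM + 1 of 2 paralogs (vertical axis) in each muscle of the 5 groups, with a line for the mean and bars for the SD. The Mybph/Mybpc2 ratio lies above and the Myom2/Myom3 and Cfl2/Cfl1 ratios lie below every uninjured muscle at days 3, 14 and 21, and Actn3/Actn2 overlaps the uninjured muscles at all times.

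Set beside the members, 14 myofibre genes outside the sarcomere, such as those of calcium handling and glycolysis, had 12 called lower at day 3 and none higher, with a median log2 fold change of -1.42. Of the 16 non-muscle or smooth-muscle paralogs, 11 were higher and none lower, with a median of 0.74. Of the 25 tested genes among 26 other sarcomere genes, which include slow, embryonic and cardiac isoforms, 8 were higher and 6 lower, with a median of -0.06. Over all tested genes 19.8% were lower and 23.4% higher at day 3. On day 21 limma called 0 genes of these 3 lists in either direction, against 1.69% lower and 1.74% higher over all tested genes. The medians of the 3 lists were -0.32, 0.22 and 0.04. Markers of satellite cells and myoblasts had 4 of 5 called higher at day 3 and 3 at each later time, with sums of 17.1 to 26.3 FPKM in uninjured muscle and 98.2 to 385 FPKM at day 3. Higher calls over all tested genes were 23.4%, 15%, 9.02% and 1.74% at days 3, 7, 14 and 21.

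The counts depended on how libraries were scaled. The deposited FPKM carry a scaling in which the median tested gene is level between groups, with a denominator that averaged 0.782 times the reads of a library in uninjured muscle and 1.25 times at day 3. When FPKM were rescaled to a common sum per library, the median tested gene moved to 0.51 at day 3 and 0.48 at day 7. The members then had 8 lower and 5 higher at day 3, where 2.2% and 46.9% of all tested genes were called, and 1 lower and 4 higher at day 7, where 1.43% and 43.1% were. Between day 21 and day 3, 8 members were higher and 1 lower, with 1.16% and 33.1% of all tested genes. The median member was at -0.07 at day 3 and at 0.04 at day 7, the latter a change of sign, which is -0.58 and -0.44 relative to the median tested gene, and 31 and 32 of the 41 members lay below it.

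Across 4 scalings (deposited, common sum, own read total and quantile), 5 members were called lower at day 3 in each, namely Tpm1, Tmod4, Mylk2, Myom1 and Myoz1. The share of all tested genes called in each of the 4 was not counted. A further scaling, by median ratios, kept the direction and call of all 79 results followed for single members. It levels a median over genes, as the deposited FPKM do. The members called higher at day 3 in each were Mybph and Obsl1. At day 7 and at day 14, Mylk2 was called lower and Mybph, Myom3 and Obsl1 were called higher in each. None of the 41 was called at day 21 in all 4, against 2 on the deposited values by limma. Tpm1, Mylk2 and Myoz1 were called higher at day 21 than at day 3 in each of them.

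**Figure D5:**
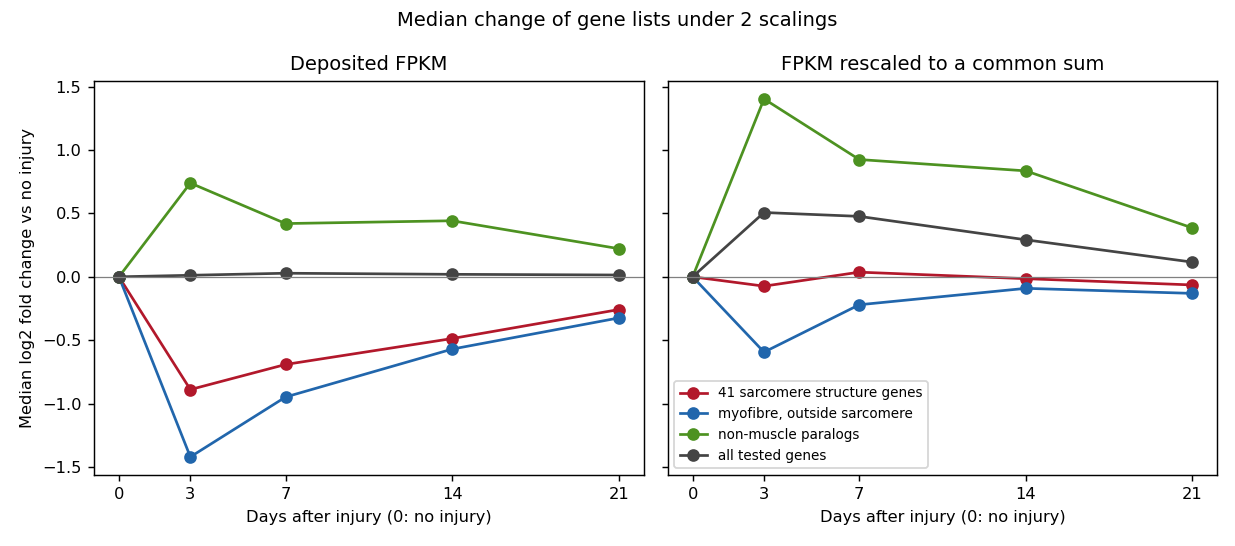
The median log2 fold change against uninjured muscle (vertical axis) is plotted over days after injury for the 41 members, 14 myofibre genes outside the sarcomere, 16 non-muscle or smooth-muscle paralogs and all 14630 tested genes, on deposited FPKM (left) and on FPKM rescaled to a common sum (right). On the left the members start at -0.89 at day 3 with all genes near 0, and on the right all genes rise to 0.51 and the members stay near 0, above it at day 7, so the members lie below all genes in both.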

How the data were processed

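RNA from 27 tibialis anterior muscles was sequenced as poly-A, non-directional libraries, and the authors aligned reads with HISAT2 2.0.5, counted them per gene with featureCounts 1.5.0-p3 and deposited FPKM for 54532 genes. Tool versions come from the submitters' processing notes, and the genome build is not given in the sources used here. Groups and replicate numbers were taken from the labels. FPKM times gene length gave whole reads (within 0.01 read or a relative error of 1e-05) for 100% of values, with totals of 14376395 to 24436763 (median 17398586), and the denominator in the FPKM was 0.747 to 1.48 times a library's own total. Of the genes found in GENCODE M21 on GRCm38, 98.2% had the same coordinates, among them 39 of the 41 members.

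Values were taken as log2(FPKM + 1). A gene was tested where 5 or more samples reached an FPKM of 0.5, which left 14630 genes, and limma 3.58.1 (R 4.3.3) was used with 1 mean per group, a variance trend, two-sided tests and Benjamini-Hochberg adjustment per comparison at 0.05. On simulated data, 91.5, 93, 93 and 94% of 200 changed genes in 14630 were recovered at days 3, 7, 14 and 21, with 13, 8, 9 and 11 false calls. The planted changes were the same at each time, with independent normal noise, and larger than most member changes at day 21. The rates therefore do not measure how often changes of the size seen at day 21 would be found. Paralog ratios were compared with exact permutation tests (scipy 1.17.1). The other software was numpy 2.4.6, pandas 2.3.3, matplotlib 3.10.9 and Python 3.11.15. Described in full were, in each place of the sarcomere, the 2 called members with the largest rise and the 2 with the largest fall, and members called at day 21, beside others singled out after their values were seen. The members, gene lists and tests were chosen with earlier results of these data known. The labels do not say whether replicate numbers or letters pair the samples, and the main fit did not pair them. Alternatives were another pseudocount, other filters and scalings, voom weights, no trend, replicate blocks, the 2 compared groups alone and samples left out. The removal of day 7 replicates 3 and 6 and the median-ratio scaling were added after the data were seen.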

Additional observations from a re-analysis of the deposited data

Results flagged for a closer look

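Examined were 70 groups of samples, for the members described in full and for the share of reads that fell on the members. A group was flagged where the gap of a sample to its neighbour, as a share of the range, passed Dixon's 95% value. Chance passes about 1 group in 20, and 2 were flagged. Both were of Nrap, at 175.4 FPKM in day 3 replicate 2 and at 205.03 FPKM in day 7 replicate 2, each the highest of its group. Under the same contrast with uninjured muscle, day 3 and day 21 differed in the fit for 17 members, all higher at day 21, as described in the report.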

How the results depend on the processing

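Totals of members called, counted in both directions, were 28 at day 3, 19 at day 7, 10 at day 14, 2 at day 21 and 17 for day 21 against day 3. Shares of all tested genes are not set beside the totals in this paragraph. The totals therefore do not show whether the members moved apart from all genes. FPKM rescaled to a common sum gave 13, 5, 5, 0 and 9. With the own read total as denominator the first 4 were 18, 8, 6 and 1. Quantile normalization gave 11 at day 7, 1 at day 21 and 11 between days 21 and 3. No filter on low values gave 6 at day 14 and 1 at day 21, and voom weights 1 at day 21. Fits of only the 2 groups compared gave 11, 16 and 8 at days 7, 14 and 21. Without day 7 replicates 3 and 6, day 7 had 30. The replicate block by number gave 17 at day 14 and 4 at day 21, and by letter 16 and 5. Of 51 pairs from different groups with the same number, 15 had deviations correlated over 0.1. The mean correlation was 0.022 over the 51 pairs and -0.0033 over the 240 other pairs. Of the 27 samples, 11 correlated best with a sample of their own number. The labels do not say whether the numbers pair the samples, and these values do not settle it. Leaving out 1 library gave 23 to 29 members for day 3, 12 to 27 for day 7, 5 to 11 for day 14, 1 to 3 for day 21 and 7 to 18 between days 21 and 3. The numbers of ratios past the threshold were then 4 to 5, 2 to 4, 4 to 6 and 3 to 5 at the 4 times, with 5 at day 21 without day 21 replicate 3. Day 21 had 1 member without uninjured replicate 1, 3, 4 or 5 or day 21 replicate 1, 2 or 3. Without day 3 replicate 5 and day 7 replicate 5, day 21 had 3 members higher and 1 lower. The totals not given here stayed within 1.5 times under each setting.

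Directions turned as follows on the log2 scale, and the cause was not tested. The list covers called members, with Cfl2, Klhl41 and Flnc added at day 3. Other uncalled members can turn too and are not listed. On common-sum values at day 3 Acta1 was 0.054, Lmod3 0.23, Cfl2 0.75, Pdlim7 0.18 and Klhl41 0.73, at day 7 Lmod3 was 0.12, Ttn 0.0017, Pdlim5 0.077 and Pdlim7 0.081, and Unc45b between days 21 and 3 was -0.20. On own read totals at day 3 Lmod3 was 0.068, Cfl2 0.59, Pdlim7 0.022 and Klhl41 0.57, and Unc45b between days 21 and 3 was -0.040. On quantile normalized values at day 3 Acta1 was 0.49, Tpm2 0.32, Cfl2 0.15, Mylpf 0.31 and Klhl41 0.20, at day 7 Tpm2 was 0.064 and Tnnt3 0.11, and between days 21 and 3 Tpm2 was -0.098 and Mylpf -0.0036. Flnc at day 3 ran from -0.11 without replicate 2 to 0.30 when another library was left out. Of 94 single results, 79 were for members and the rest for paralog ratios. Of the 94, 61 kept their direction and call whichever library of the 2 compared groups was left out. Low read counts limit Mybph and Myoz3, whose lowest libraries held 16 and 20 reads. Tnnc2, at 0 to 19 reads, was not read as expression because it shares exon bases with Ube2c.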
